A study of Mus musculus with 2 samples.

Results

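Semaphorins, plexins and neuropilins form a ligand and receptor family that guides growing axons and migrating cells. The genes described here are the 31 of 23284 gene symbols in the deposited count files whose name is that of a semaphorin of classes 3 to 7, of a plexin, or of Nrp1 or Nrp2. They comprise 20 semaphorins, 9 plexins and 2 neuropilins, and were picked out by name, with earlier results of these data known. Expression was measured by RNA-seq of total RNA from GFP-positive cells, sorted from the whole pancreata of e15.5 mouse embryos with the NGN3-EGFP reporter. The strain is given as mixed, C57BL6, and the 2 samples analysed here, replicates 1 and 2, form 1 group, so that only levels and the spread between libraries are described. The labels do not say how the EGFP reporter was built, how many embryos each sample pooled, or whether the samples came from separate litters. The spread between them may therefore be technical. GFP is a long-lived protein, so a reporter of Neurog3, the factor that starts endocrine differentiation, can also mark cells that have passed the progenitor stage.

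Semaphorins of class 3 are secreted, those of classes 4 to 6 span the membrane, and Sema7a is tied to it by a lipid anchor. Plexins are the signalling receptors: inside the cell they act on small GTPases such as Rap and Rac and so on the cytoskeleton and on adhesion. Neuropilins bind class 3 semaphorins and pass the signal on through A plexins, whereas most membrane-bound semaphorins bind plexins directly. In the embryonic mouse pancreas, semaphorins of the mesenchyme and Nrp2 on endocrine progenitors are known to steer the movement of islet cells.

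Replicate 1 held 12495143 counted reads and replicate 2 held 12043734. Levels within 1 gene are given in CPM, the reads per 1000000 reads of the library, after scaling for library size. Levels of different genes are compared per kb of exon, as CPM divided by exon length in kb (RPKM). A count of 0 allows up to 3 reads, or 0.241 CPM in the first library and 0.248 CPM in the second, by counting error alone. All 12 endocrine marker genes examined, Neurog3 among them, were at 1 CPM or more in both libraries. In pooled cells, fewer cells of a type and less RNA per cell cannot be told apart, and a level cannot assign a transcript to particular cells.

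The family was detected unevenly, with both sides of the signal present. At 1 CPM or more in both libraries were 19 of the 31 genes, against 45.7% of all symbols: 11 of 20 semaphorins, 6 of 9 plexins and both neuropilins. Replicate 1 alone held 22 of them at that level (50.3% of all symbols) and replicate 2 alone 23 (51.6%). In all, 7 reached 1 CPM in 1 library but not in the other, where 10.4% of all symbols did. These were Plxnc1, Sema3b and Sema3g in replicate 1 and Plxna4, Sema3a, Sema4f and Sema5b in replicate 2. The other 5, Plxnb3, Sema3d, Sema3e, Sema6c and Sema7a, stayed below 1 CPM in both. Each of the 31 had at least 1 read, whereas 34.9% of all symbols had none. A mean of 100 CPM or more was reached by 4 genes, Plxnb2, Plxnb1, Sema6d and Sema6a, against 9.99% of all symbols.

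**Figure D1:**
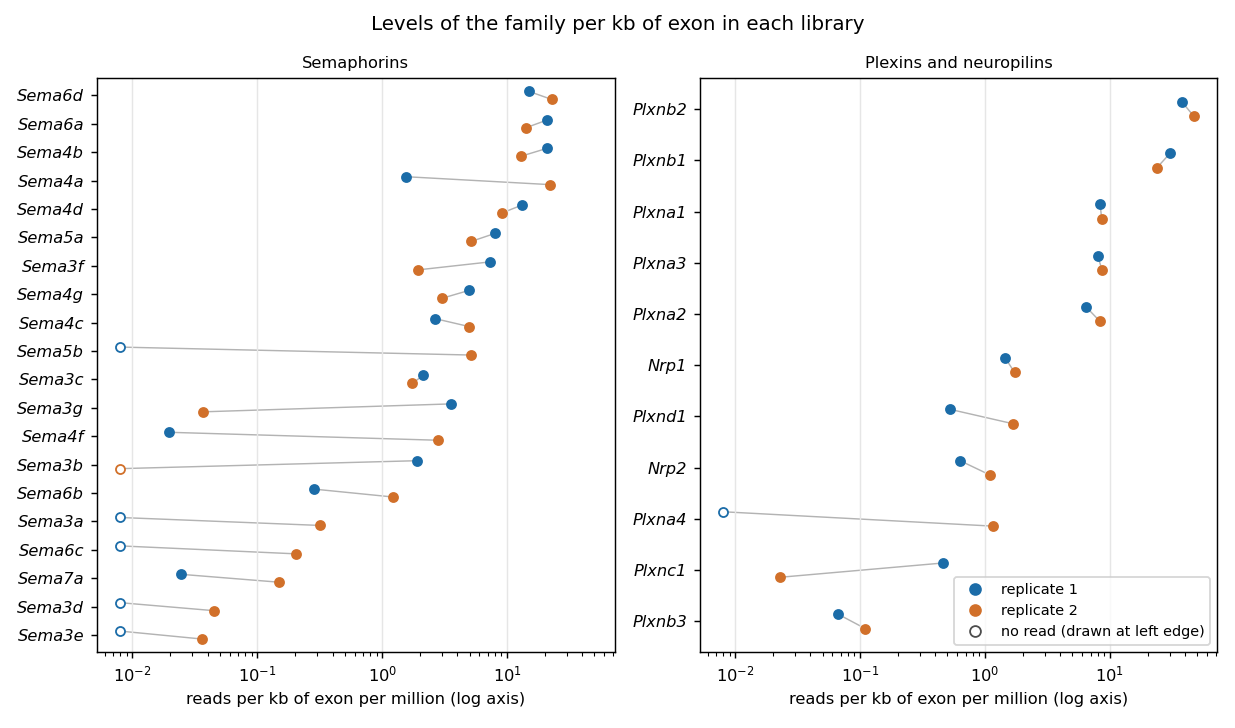
Level of each semaphorin (left) and each plexin and neuropilin (right) in RPKM on a log axis, with 1 point per library and genes ordered by their mean; open points at the left edge had no read. Plxnb2 and Plxnb1 stood above the other receptors in both libraries, while Sema4a, Sema5b, Sema3g, Sema4f, Sema3b, Plxna4 and Plxnc1 lay far apart between the libraries.

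The B plexins held most of the receptor transcripts. Plxnb2, a receptor for class 4 semaphorins, was at 248 and 309 CPM in replicates 1 and 2. Plxnb1, the classical receptor of Sema4d, was at 262 and 206 CPM. Both genes were high in both libraries, and the differences between the libraries were 1.25-fold and 1.27-fold in opposite directions. Per kb of exon Plxnb2 was at 42.4 ± 6.54 RPKM and Plxnb1 at 27.1 ± 4.59 RPKM (SD, n = 2), which placed Plxnb2 at rank 1492 and Plxnb1 at rank 2478 of 22804 symbols with an exon length. Plxnb2 was above Plxnb1 by 1.25-fold and 1.97-fold per kb in replicates 1 and 2. The third B plexin, Plxnb3, had 5 and 8 reads, or 0.40 and 0.66 CPM. Together the B plexins held 74.2% of the plexin reads per kb in replicate 1 and 71.4% in replicate 2.

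The promoters of the 2 abundant B plexins are shown because these receptors led the family, beside that of Sema3a, which had no read in replicate 1 and 24 reads in replicate 2. The choice was made after the levels were seen. Each window runs from 250 bases before to 50 bases after an annotated start (RefSeq, build GRCm38.p6), is written 5′ to 3′ on the gene's strand, and has its CG dinucleotides in capitals. Plxnb2 has windows for several starts, and counts per gene do not tell which start was used.
Plxnb1 (chr9:109095186-109095485, + strand): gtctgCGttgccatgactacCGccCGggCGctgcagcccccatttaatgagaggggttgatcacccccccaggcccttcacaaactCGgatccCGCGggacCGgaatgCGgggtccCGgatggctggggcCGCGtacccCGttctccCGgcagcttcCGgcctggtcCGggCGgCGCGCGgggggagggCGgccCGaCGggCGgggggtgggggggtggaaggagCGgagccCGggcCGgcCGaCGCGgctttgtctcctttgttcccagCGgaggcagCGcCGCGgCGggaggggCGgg
Plxnb2 (chr15:89173902-89174201, - strand): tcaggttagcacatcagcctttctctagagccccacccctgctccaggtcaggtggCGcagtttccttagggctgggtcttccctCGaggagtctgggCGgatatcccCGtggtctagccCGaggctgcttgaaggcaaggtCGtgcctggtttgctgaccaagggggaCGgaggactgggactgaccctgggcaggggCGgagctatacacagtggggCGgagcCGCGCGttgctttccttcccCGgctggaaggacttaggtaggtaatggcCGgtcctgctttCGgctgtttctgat
Plxnb2 (chr15:89180739-89181038, - strand): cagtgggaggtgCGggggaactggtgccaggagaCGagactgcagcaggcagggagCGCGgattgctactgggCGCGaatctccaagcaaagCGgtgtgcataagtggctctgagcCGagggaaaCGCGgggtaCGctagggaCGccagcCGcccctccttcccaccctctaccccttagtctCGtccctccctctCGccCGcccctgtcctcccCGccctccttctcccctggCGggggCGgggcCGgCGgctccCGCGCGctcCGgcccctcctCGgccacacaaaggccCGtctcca
Sema3a (chr5:13396534-13396833, + strand): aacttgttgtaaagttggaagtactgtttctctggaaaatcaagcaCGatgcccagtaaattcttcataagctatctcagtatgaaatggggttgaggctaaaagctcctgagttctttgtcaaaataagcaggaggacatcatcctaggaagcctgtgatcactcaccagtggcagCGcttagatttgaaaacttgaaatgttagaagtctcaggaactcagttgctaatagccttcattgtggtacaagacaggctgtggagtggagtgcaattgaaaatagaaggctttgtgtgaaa
The Plxnb1 window held 36 CG and was 74.7% G or C, the Plxnb2 windows held 15 and 27 CG at 61.7% and 70.3%, and the Sema3a window held 2 CG at 41.3%. Promoter windows were matched for 26 of the 31 genes, 37 windows in all. An observed CG frequency of at least 0.6 times that expected from base composition was found in 18 of these, or 48.6%, against 35.8% of 32851 windows of all genes. The share was 53.8% for windows of members detected in both libraries and 36.4% for windows of other members. The same split was not made over all genes, so it does not set the family apart. Single genes, picked after their values were seen, departed from this split. The Sema4d windows were at 0.15, 0.13 and 0.1 times, and the Plxnc1 window at 0.84 times. The windows printed above thus do not stand for the family. A letter motif CANNTG, which is the same on both strands and is the core bound by basic helix-loop-helix factors such as Neurog3, occurred in 21 of the 37 windows, or 56.8%, against 72.3% of all windows. It occurred in 46.2% of windows of members detected in both libraries and in 81.8% of windows of other members. This split too was not made over all genes. These are descriptions of letters, not of binding.

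A plexins, the signalling partners of neuropilins and receptors of class 6 semaphorins, were next. Plxna1 was at 75.4 and 77.5 CPM in replicates 1 and 2. Plxna3 was at 55.3 and 60.0 CPM, and Plxna2 at 71.1 and 91.6 CPM. The values of Plxna1 and of Plxna3 lay close together in the 2 libraries, while Plxna2 was 1.29-fold higher in replicate 2. Per kb these genes stood at 8.46 ± 0.17, 8.30 ± 0.48 and 7.37 ± 1.32 RPKM for Plxna1, Plxna3 and Plxna2 (SD, n = 2), and neighbours in this order overlapped between libraries. All of them lay below both B plexins without overlap. Plxnb2 was above Plxna2 by 5.87-fold and 5.67-fold per kb in replicates 1 and 2.

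Plxna4, a receptor of class 3 and class 6 semaphorins in neurons, had no read in replicate 1 and 179 reads in replicate 2. The second value is 14.8 CPM, with an exact (Clopper-Pearson) 95% interval from 12.7 to 17.1. It is 61.4-fold the level of 3 reads in replicate 1, a ratio that leaves out the counting error of the second value. Plxnd1, the receptor of Sema3e in blood vessels, was at 3.62 and 11.5 CPM. Plxnc1, the receptor of Sema7a, had 42 and 2 reads, or 3.38 and 0.17 CPM. Its ratio of replicate 1 to replicate 2 was 20.4, with a 95% counting interval of 5.31 to 174. Plxna4 and Plxnd1 were thus higher in replicate 2 and Plxnc1 in replicate 1.

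Both neuropilins were detected at low levels. Nrp1, which binds Sema3a, was at 5.23 and 6.20 CPM in replicates 1 and 2. Nrp2, which binds Sema3f, was at 6.51 and 11.3 CPM. Both values were higher in replicate 2, by 1.19-fold for Nrp1 and 1.74-fold for Nrp2. Per kb Nrp1 was at 1.59 ± 0.19 and Nrp2 at 0.86 ± 0.33 RPKM (SD, n = 2). This order depends on the exon length used, since with the full annotation Nrp1 was at 0.58 and Nrp2 at 0.75 RPKM. Neuropilins held 2.21% and 2.76% of the reads per kb of all receptors in replicates 1 and 2, and Plxnb2 was above Nrp2 by 60.2-fold and 43.1-fold per kb.

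Of the semaphorins, classes 4 and 6 held most of the transcripts. Class 4 had 42.2% of the semaphorin reads per kb in replicate 1 and 51.0% in replicate 2, and class 6 had 35.5% in each. Class 6, whose members are ligands of A plexins, was led by Sema6d and Sema6a. Sema6d, a ligand of Plxna1, was at 108 and 163.5 CPM, and Sema6a, a ligand of Plxna2 and Plxna4, at 149.8 and 100.1 CPM. Sema6d was the higher of the pair in replicate 2 and Sema6a in replicate 1. Their sum moved less than either gene, and class 6 as a whole was at 259 and 269 CPM. Sema6b was at 1.13 and 4.88 CPM. Sema6c had no read in replicate 1 and 10 reads, or 0.83 CPM, in replicate 2.

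In class 4, the ligands of B plexins and of some immune receptors, 5 of 6 members were detected in both libraries. Sema4b was at 84.2 and 51.9 CPM in replicates 1 and 2. Sema4d, the ligand of Plxnb1, was at 62.3 and 42.8 CPM. Sema4g and Sema4c, both ligands of Plxnb2, were at 22.7 and 13.7 CPM and at 11.3 and 21.3 CPM. These genes lay within a 2-fold difference between the libraries. Sema4a, known for roles in immune cells and in the retina, did not: its 66 reads in replicate 1 and 922 reads in replicate 2 correspond to 5.31 and 76.2 CPM, a 14.4-fold difference. Sema4f had 1 read in replicate 1 and 138 reads in replicate 2, with a ratio of 142 and a 95% counting interval of 25.1 to 5650. Class 4 as a whole was at 186 and 217 CPM.

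Class 5, whose members carry thrombospondin repeats, held Sema5a at 85.9 and 55.6 CPM. Sema5b had no read in replicate 1 and 290 reads in replicate 2, which is 23.97 CPM there, with an exact (Clopper-Pearson) 95% interval from 21.3 to 26.9. This value is 99.4-fold the level of 3 reads in replicate 1. Sema7a, the lipid-anchored member, had 1 and 6 reads.

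The secreted class 3 semaphorins were scarcer, with 2 of 7 detected in both libraries. Sema3f, the ligand of Nrp2, was at 25.4 and 6.78 CPM in replicates 1 and 2. Sema3c, which binds both neuropilins, was at 11.6 and 9.59 CPM. Sema3g had 201 and 2 reads, a ratio of 97.7 with a 95% counting interval of 26.7 to 812. Sema3b had 88 reads in replicate 1 and none in replicate 2, and its level in replicate 1 was 28.5-fold that of 3 reads in replicate 2. These were higher in replicate 1, whereas Sema3a, the ligand of Nrp1, had its 24 reads in replicate 2, as did Sema3d with 4 and Sema3e with 3. Class 3 as a whole was at 60.2 and 19.1 CPM.

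Mesenchyme is a known source of class 3 semaphorins, and most of its marker transcripts were lower in replicate 2. The class 3 genes did not move as one. Sema3b, Sema3f and Sema3g were higher in replicate 1, and Sema3c differed 1.21-fold. Sema3a, Sema3d and Sema3e had reads in replicate 2 only. The 11 mesenchymal marker genes summed to 433.5 and 138.5 CPM in replicates 1 and 2, and 10 of them reached 1 CPM in replicate 1 and 5 in replicate 2. By mean level the highest were Col1a2, a chain of type I collagen, at 122 and 47.0 CPM and Vim, an intermediate filament gene, at 66.2 and 41.3 CPM. Nkx3-2 and Tcf21, factors of pancreatic mesenchyme, had no read in replicate 2. Acta2 went the other way, with 2 and 7 reads in replicates 1 and 2. In the exact binomial test described below, 10 of the 11 were higher in replicate 1, as were 41.7% of all genes tested. The part of mesenchymal cells in the class 3 levels was not tested.

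**Figure D2:**
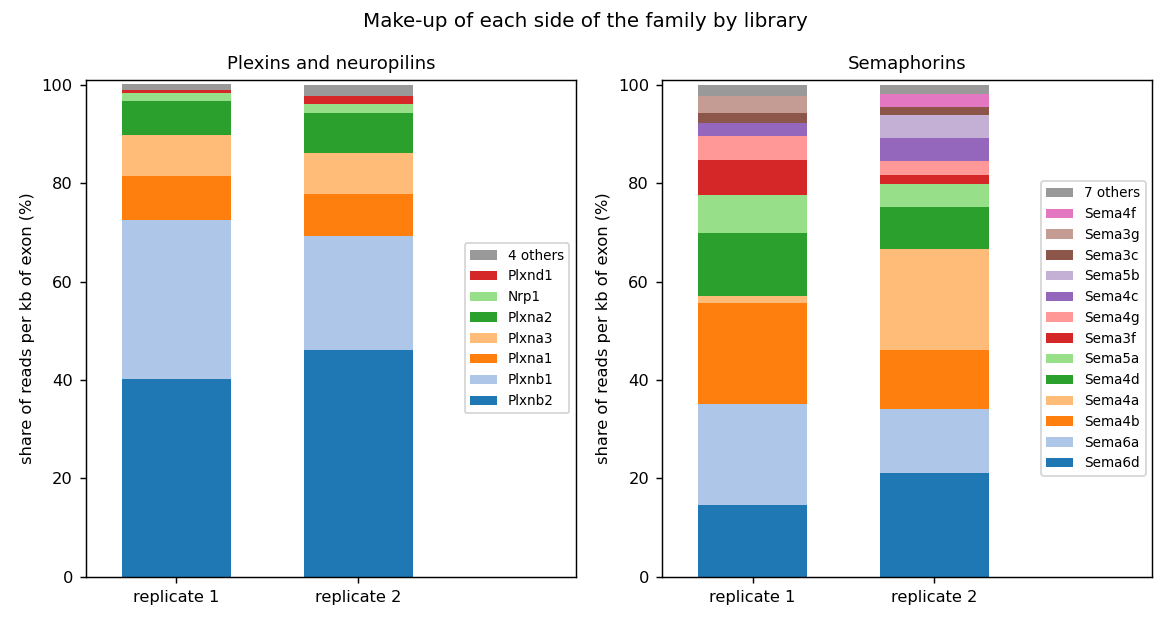
Share of each gene in the reads per kb of exon of all plexins and neuropilins (left) and of all semaphorins (right), as stacked bars in percent for each library, with genes under a mean of 1% joined in grey. Plxnb2 and Plxnb1 filled most of the receptor bar in both libraries, while Sema4a took 1.51% of the semaphorin bar in replicate 1 and 20.6% in replicate 2.

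Set in order per kb of exon, few neighbours stood clear of each other. Among receptors 3 of 10 neighbouring pairs did not overlap between libraries: Plxnb2 over Plxnb1, Plxnb1 over Plxna1, and Plxna2 over Nrp1. Among semaphorins 18 of 19 neighbouring pairs overlapped, and the exception was Sema4d over Sema5a. The leading semaphorins were Sema6d at 18.9 ± 5.47, Sema6a at 17.5 ± 4.93, Sema4b at 16.9 ± 5.66, Sema4a at 11.9 ± 14.6 and Sema4d at 11.1 ± 2.91 RPKM (SD, n = 2), and their order is not resolved by these libraries. With the full annotation Sema6a led at 14.2 RPKM over Sema6d at 12.9 RPKM.

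Both sides of some known ligand and receptor pairs were present in the pool. For Plxnd1 and Plxnc1 the named ligand stayed below 1 CPM in both libraries, with 0 and 3 reads for Sema3e and 1 and 6 for Sema7a. In replicate 1, Nrp1 was without a read of its ligand Sema3a, and Sema6a without a read of its receptor Plxna4. Per kb, Plxnb1 was above its ligand Sema4d by 2.31-fold and 2.64-fold in replicates 1 and 2. Plxnb2 was above Sema4c by 14.2-fold and 9.43-fold and above Sema4g by 7.58-fold and 15.6-fold. On the A plexin side the ligand was the higher of each pair. Plxna1 stood at 0.56 and 0.38 times the level of Sema6d, and Plxna2 at 0.31 and 0.59 times that of Sema6a. Summed per kb, receptors stood at 94.0 and 102 RPKM and semaphorins at 102 and 108 RPKM in replicates 1 and 2, a log2 ratio of -0.12 and -0.08. That direction rests on exon length, for the mean log2 ratio was 0.19 with the full annotation and 0.37 without division by length.

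The 2 libraries differed beyond counting error for most of the family, as they did for most genes. Of the 28 members with at least 10 reads in all, which leaves out Sema3d, Sema3e and Sema7a, 23 passed a two-sided exact binomial test, with p-values adjusted over 13416 genes by the Benjamini-Hochberg method, where 85.8% of all genes did. This test compares these libraries, not conditions, and no exact permutation of 2 samples can go below p = 0.5. Higher in replicate 1 were 10 members, against 41.7% of genes, and higher in replicate 2 were 13, against 44.1%. The 5 that did not pass were Nrp1, Plxna1, Plxna3, Plxnb3 and Sema3c, with adjusted p in the exact binomial test of 0.378, 0.575, 0.145, 0.444 and 0.153.

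A difference over 2-fold was seen in 12 of the 28, against 48.8% of genes, and was commoner at lower levels. It was seen in 0 of 4 members with a mean of 100 CPM or more, where 11.9% of genes of that level showed it. From 10 to 100 CPM it was seen in 3 of 12 members, Sema3f, Sema4a and Sema5b, against 43.1% of genes. From 1 to 10 CPM it was seen in 7 of 9 members against 75.5% of genes, the exceptions being Nrp1 and Nrp2. No read in 1 library and at least 50 in the other was the pattern of Plxna4, Sema3b and Sema5b, 3 of 28, against 3.65% of genes. The median log2 ratio of replicate 2 to replicate 1, with a prior count of 2, was 0.28 over the 28 members and 0.04 over all genes tested. It was -0.27 over 17 semaphorins and 0.32 over 11 receptors. The summed semaphorins stood at 591 and 586 CPM.

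**Figure D3:**
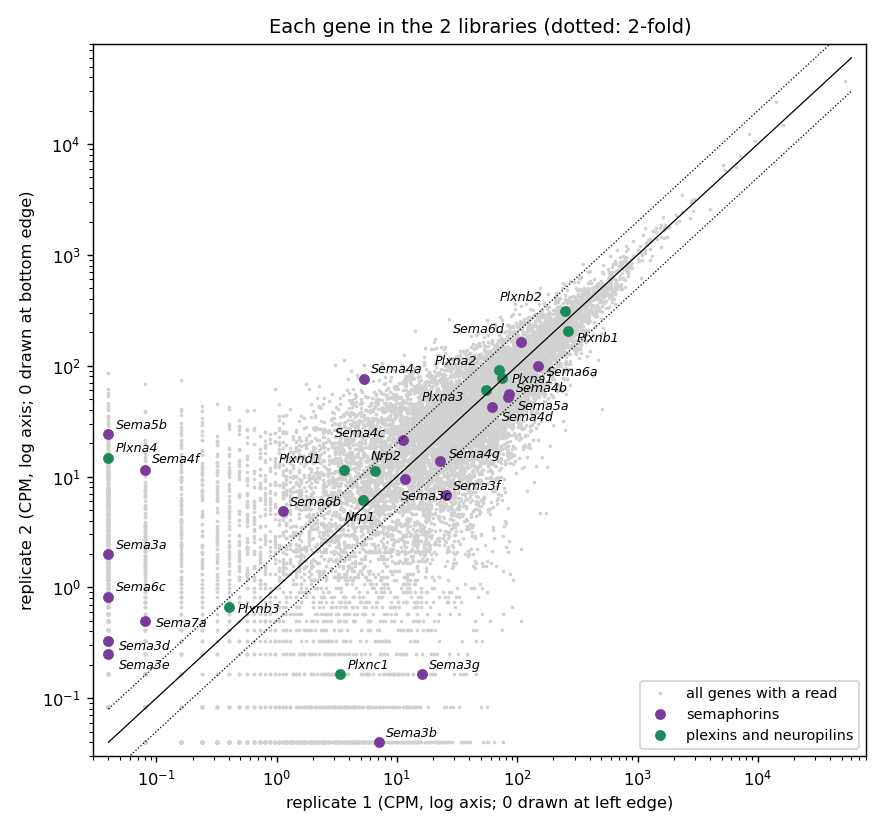
Each gene in replicate 1 (horizontal) and replicate 2 (vertical) in CPM on log axes, with all genes in grey, semaphorins in purple and plexins and neuropilins in green; the solid line marks equal levels, dotted lines a 2-fold difference, and genes with no read are drawn at the edge. The abundant B plexins lie near the line, and Sema5b, Plxna4 and Sema3b lie on the edges among other genes of the same kind.

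Transcripts of other cell types that use this family were in the pool too, at levels that overlapped those of its less abundant members. Endothelial cells are known for Plxnd1 and Nrp1. The 10 endothelial marker genes summed to 38.3 and 20.5 CPM in replicates 1 and 2, with 2 of 10 at 1 CPM or more in both, the highest by mean being Cdh5 at 15.6 and 0.17 CPM and Eng at 13.5 and 1.90 CPM. They did not move as one: of the 5 with at least 10 reads, Cdh5, Eng and Egfl7 were higher in replicate 1 in the exact binomial test, whereas Sox17, with 0 and 80 reads, and Esam, with 0 and 54 reads, were higher in replicate 2. Plxnd1 was higher in replicate 2. In CPM, Cdh5 and Eng were above Plxnd1 and Nrp1 in replicate 1 and below both in replicate 2. The vascular receptor gene Kdr, a partner of neuropilins, had 1 read in all. Immune cells are known for Sema4a, Sema4d and Plxnc1. Of 10 immune marker genes 3 were detected in both libraries and 2, Fcer1g and Cd52, had no read, and Ptprc, which marks all white blood cells, had 1 read in all. Their sum was 80.1 CPM in replicate 1 and 24.1 CPM in replicate 2, and the highest by mean were Laptm5 at 37.9 and 3.56 CPM and Itgam at 23.6 and 4.96 CPM. In replicate 2 the highest were instead Cd68 at 7.69 CPM, from 18.4 CPM in replicate 1, and Aif1 at 6.70 CPM, which had 81 reads there and none in replicate 1. Of the 4 with at least 10 reads, Laptm5, Itgam and Cd68 were thus higher in replicate 1 and Aif1 in replicate 2. Plxnc1 and Sema4d were higher in replicate 1 and Sema4a in replicate 2. The 8 markers of neural crest and Schwann cells summed to 27.9 and 36.2 CPM, led by Ngfr at 2.41 and 26.2 CPM and Erbb3 at 16.2 and 5.70 CPM, with 3 of 8 detected in both. The part of these cells in the family's levels was not tested.

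Marker transcripts of ductal and acinar epithelium were also in the pool. The 7 ductal marker genes summed to 674 and 619.5 CPM in replicates 1 and 2, led by Krt7 and Muc1, and 6 of 7 were detected in both. The 7 acinar marker genes summed to 2044 and 1478 CPM, led by the enzyme genes Ctrb1 and Pnliprp1, and 6 of 7 were detected in both. The 12 endocrine marker genes summed to 37770 and 53170 CPM, led by Gcg and Ins1. The ductal marker not detected was Onecut1, with 3 reads in each library, and the acinar one was Ptf1a, with 0 and 3 reads. The levels of the family are averages over the cells of the pool. Which cells carried these marker transcripts was not tested.

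Of 57 other genes of the pathway, through many of which plexins act, 40 were at 1 CPM or more in both libraries, where 45.7% of all symbols were: 6 of 15 coreceptors and partners, 17 of 21 GTPases and their regulators, and 17 of 21 effectors. Of the 48 with at least 10 reads, 23 were higher in replicate 1 and 20 higher in replicate 2 in the same exact test, which 85.8% of all genes passed. Their median log2 ratio was -0.07.

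Met and Erbb2, receptor tyrosine kinases that associate with B plexins, were at 19.9 and 50.4 CPM and at 17.2 and 16.4 CPM in replicates 1 and 2. Met was thus higher in replicate 2, and Erbb2 stood close between the libraries. Itgb1, the integrin chain through which Sema7a signals, was at 249 and 173 CPM, and Ret, the receptor kinase of GDNF family ligands, at 226 and 105 CPM. Ptk7 and the adhesion gene L1cam, a neuropilin partner, were at 30.0 and 24.0 CPM and at 38.4 and 9.09 CPM. Timd2, a receptor of class 4 semaphorins on immune cells, and Trem2 had no read.

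Arhgef12, a guanine nucleotide exchange factor that binds the tail of B plexins, was at 310 and 335 CPM, close between the libraries. Rap1b, a substrate of the plexin GAP domain, was at 729 and 851 CPM and Rap1a at 91.6 and 105 CPM. Rac1 and Rhoa were at 608 and 699.5 CPM and at 216 and 258 CPM. Arhgap35, a GTPase-activating protein listed under its older symbol Grlf1, was at 378 and 449 CPM. Rnd1, a GTPase that binds plexin tails, had no read in either library, while its relative Rnd3 was at 66.1 and 82.3 CPM.

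Among effectors, Mical2, of the oxidoreductases that take actin filaments apart, was at 444 and 330.1 CPM. Dpysl2, the collapsin response mediator protein of class 3 signalling, was at 370.3 and 295 CPM. The kinase gene Gsk3b was at 495 and 577 CPM, and Cdc42 at 553 and 474 CPM. Cfl1, which encodes the actin-severing protein cofilin, was at 449.5 and 287 CPM. The microtubule gene Map1b, listed as Mtap1b, was the highest of the 57 at 1668 and 1740 CPM. Reads of some of these genes can be shared with copies elsewhere: 80.3% of the 25-base words of Rhoa, 81.8% of Cfl1 and 83.8% of Rap1a were found in no other gene. For the 31 family genes this share was at least 96.2%.

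**Figure D4:**
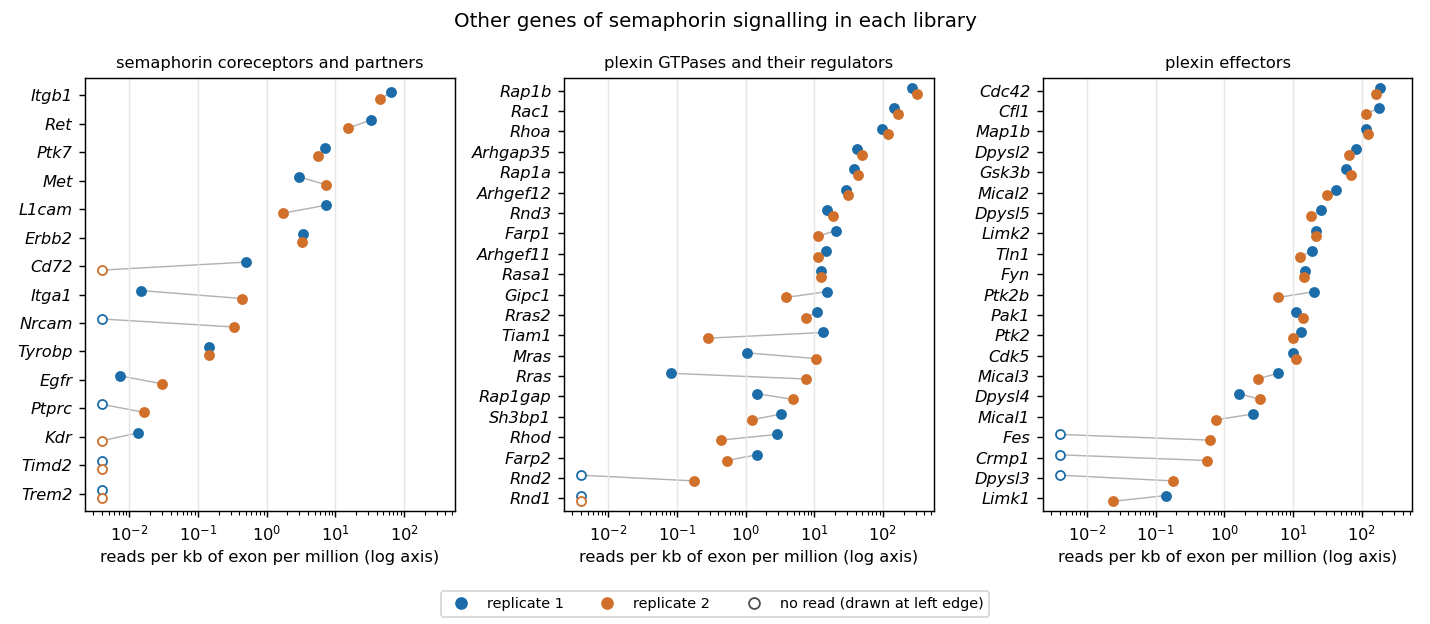
Levels of 57 other genes of semaphorin signalling in RPKM on a log axis, in replicates 1 and 2, for coreceptors and partners (left), GTPases and their regulators (middle) and effectors (right); open points at the left edge had no read. Rap1b, Cdc42 and Rac1 were among the highest, and Timd2, Trem2 and Rnd1 had no read in either library.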

How the data were processed

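Each deposited file gives the raw count of reads for each gene symbol of 1 sample, per the file headers. Per the submitters' processing notes the build was mm9 and the tools were TopHat2 2.0.4, Cufflinks 2.0.2, DESeq, FastQC and cutadapt, with no roles stated. The counting program, annotation, strand setting and treatment of reads with several matches were not given, so overlapping and antisense genes are uncertain; Plxna1 shares 10.7% of its exon bases with a gene on the opposite strand.

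Counts were scaled with TMM factors (edgeR 4.0.16, R 4.3.3), 0.9956 and 1.0044. Exon lengths are unions of GENCODE M21 basic transcripts on GRCm38, not mm9, matched for 97.9% of symbols. No edgeR test was possible with 1 library against 1. Reads were compared by a two-sided exact binomial test (scipy 1.17.1) on genes with at least 10 reads, with Benjamini-Hochberg adjustment at 0.05. On Poisson counts simulated for 13416 genes of this comparison it found 81 of 100 genes made to differ 2-fold and 95 of 100 made to differ 4-fold, and called 8 of 13216 left equal. Poisson counts are what the test assumes, so this simulation checks its working under counting error alone. It gives no rate of false calls for these libraries, where 85.8% of genes passed. Intervals and limits cover counting error only.

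The members, lists and tests were chosen with earlier results of these data known. Named were all members, of each signalling list the 6 with the highest mean CPM and those with no read, and of each marker list the 2 with the highest mean CPM and those with no read, some of which are not reported here; Kdr, Rnd3, Ptprc, Nkx3-2, Tcf21, Egfl7, Sox17, Esam, Cd68 and Aif1 were named after their values were seen. Alternatives were plain totals, DESeq2 1.42.0 size factors, Rn45s left out, other limits, filters and lengths, and leaving out each replicate.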

Additional observations from a re-analysis of the deposited data

How the results depend on the processing

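Counts of members and pathway genes detected, the number of members differing between the libraries and the median log2 ratio of the members stayed close to the values given under every alternative run, with 16 to 23 members detected, 36 to 46 pathway genes detected, 18 to 23 members differing and medians of 0.18 to 0.37. Without replicate 1 or without replicate 2, 23 and 22 members were detected. The number of members differing over 2-fold was 15 with no filter on low counts and 7 when at least 100 reads were required. The filter at 100 reads leaves out members with few reads, among which such differences were commoner. The 7, and the 18 differing, thus come from fewer members than the 28 of the main setting. Shares over all genes were not computed at these filters. The results that compare genes moved with exon length. The B plexin share of plexin reads was 68.9% without division by length, and the class 6 share of semaphorin reads was 44.9% without division by length and 37.8% with the full annotation. The log2 ratio of summed receptors to summed semaphorins turned from -0.10 to 0.37 without division by length and 0.19 with the full annotation, through the lengths alone. No paired analysis was possible because the samples analysed here form 1 group. With 12495143 and 12043734 reads, members under 10 CPM rest on few reads, and with 2 samples no difference between genes or libraries has an estimate of biological spread beyond their own.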
